A study of Arabidopsis thaliana with 4 samples.

Results

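KISS ME DEADLY (KMD) proteins are F-box proteins with kelch repeats, the subunits by which an SCF ubiquitin ligase recognizes its substrates. In Arabidopsis they mark type-B response regulators (ARRs), the transcription factors of cytokinin signalling, and phenylalanine ammonia-lyase, the entry enzyme of phenylpropanoid synthesis, for degradation. AHP4 belongs to the histidine phosphotransfer proteins, which carry phosphoryl groups from cytokinin receptors towards the response regulators. The loci considered here were the 4 KMD genes, KMD1 (AT1G80440), KMD2 (AT1G15670), KMD3 (AT2G44130) and KMD4 (AT3G59940), together with AHP4 (AT3G16360), 5 in all. The platform table names a probe set for none of the 5. Supplementary Data 1, the study's list of genes changed on these same arrays, names one for KMD3 and one for AHP4. Any of the 5 could thus be measured here only where the study had listed it as changed. The lack of a named probe set for KMD1, KMD2 and KMD4 is not independent of the outcome. The members measured were therefore 2 of the 22746 probe sets tested, and the remaining 3 loci, KMD1, KMD2 and KMD4, were not analysed here. The members were chosen by their estradiol against mock values on these same arrays, so those values are given as a description without a test.

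Whole 14-day-old seedlings of KUA1-IOX were profiled, a stable transgenic T3 line in the Col-0 background in which estradiol lets the constitutively made activator XVE enter the nucleus and switch on KUA1, a MYB-like transcription factor, from the LexA promoter. Seedlings in liquid MS medium received 15 µM estradiol dissolved in ethanol, or ethanol alone (mock), for 4 h, and 2 biological replicates of each treatment were hybridized to Affymetrix ATH1 arrays, 4 arrays in all. Titles and methods place KUA1-IOX plants in both groups, although the genotype field of mock samples reads control. Estradiol-treated seedlings without the construct are not among these arrays, so estradiol and KUA1 induction cannot be told apart. In RNA of whole seedlings, fewer cells that express a gene and less RNA per cell cannot be told apart either. None of the 10 root, leaf and vascular marker genes listed for checking the tissue has a probe set named in the tables used here, so the tissue was not checked against them.

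KUA1 itself had a MAS5 signal, a linear intensity scaled so that the trimmed mean of each array is 100.0, of 203 and 170 under mock treatment, against 1887 and 3373 under estradiol. Its log2 fold change was 3.76 (SE, 0.29, limma adjusted p = 0.158). The groups lay far apart and the induced gene followed the labels. KUA1 passed the adjusted test where low signals were raised to the 40th percentile of their array with all probe sets kept, and no longer did so once the probe sets at that floor on every array were left out. It also passed with the crossed pairing of replicates as a block, but that pairing was chosen after seeing the data and is not part of the design. Probe sets are called dim below where the mean log2 signal of a group falls short of the 40th percentile over all probe sets, which corresponded to signals of 21.7 to 23.5 on single arrays.

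KMD3 was higher after induction. Mock-treated seedlings gave signals of 116 and 155, and estradiol-treated ones gave 843 and 1391, so that the lower estradiol array stood well above the higher mock array. The mean was 135 ± 27.5 (SD, n = 2) under mock treatment, against 1117 ± 388 (SD, n = 2) under estradiol. The log2 fold change was 3.01 (SE, 0.28), or 8.08-fold between geometric means.
The distance between the groups exceeded that between replicates. The mock arrays of KMD3 differed by 0.42 and the estradiol arrays by 0.72 on the log2 scale, whereas the 4 comparisons of an estradiol array with a mock array gave log2 differences from 2.44 to 3.59. Estradiol replicate 2 was the higher of its group for KMD3 and also for KUA1, whose estradiol arrays differed by 0.84 log2 units. In mock the order differed, with KMD3 higher in replicate 2 and KUA1 higher in replicate 1.
The gene was well above the dim range on every array. Its signal exceeded that of 74.9% and 80.4% of probe sets on the mock arrays and of 97.1% and 98.7% on the estradiol arrays. Of the 14060 probe sets that were not dim in both groups, 5 (0.0356%) had a log2 fold change at or above that of KMD3, itself and KUA1 included, and 151 (1.07%) were at least 2-fold higher. Over all probe sets 3.72% were at least 2-fold higher, and in 16.1% both estradiol arrays lay above both mock arrays.

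**Figure D1:**
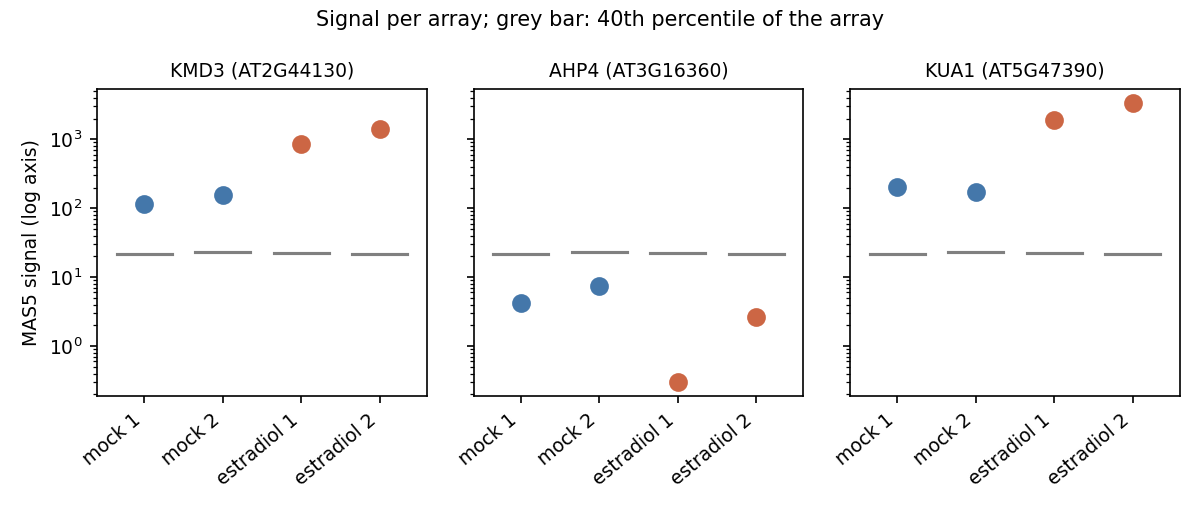
MAS5 signal on a log axis for KMD3, AHP4 and KUA1, with 1 point per array (blue, mock; orange, estradiol) and a grey bar at the 40th percentile of that array. KMD3 rises from 116 and 155 to 843 and 1391 above the grey bars, whereas all 4 AHP4 points lie under them.

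AHP4 had lower values after induction, all of them in the dim range. Mock-treated seedlings gave signals of 4.19 and 7.39, and estradiol-treated ones gave 0.30 and 2.67. The groups did not overlap, as was the case in this direction for 18% of all probe sets, and 3.34% of all probe sets were at least 2-fold lower. The mean was 5.79 ± 2.26 (SD, n = 2) under mock treatment, against 1.48 ± 1.67 (SD, n = 2) under estradiol. The log2 fold change was -2.63 (SE, 1.10).
The estradiol arrays of AHP4 lay further apart than the groups did. They differed by 3.15 log2 units, a distance reached by 178 of all probe sets, 169 of them dim in both groups. The log2 difference of estradiol replicate 2 from mock replicate 1 was -0.65, whereas that of estradiol replicate 1 from mock replicate 2 was -4.62.
The size of the AHP4 value therefore depended on 1 array and on the scale. Without estradiol replicate 1 its log2 fold change was -1.06, and without estradiol replicate 2 it was -4.21. The ratio of linear means was 3.90-fold and that of geometric means 6.21-fold. On log2(signal + 32) the value was -0.17. With signals raised to the 40th percentile of their array AHP4 lay at that floor on all 4 arrays, and its value of -0.038 was that of the floor itself. Its signals exceeded those of 14.9% and 20.2% of probe sets on the mock arrays and of 1.37% and 11.6% on the estradiol arrays.

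Dim and brighter probe sets differed in how far replicates lay apart. Among the 8686 probe sets that were dim in both groups, as AHP4 was, the 2 estradiol arrays lay at least 2-fold apart in 25.2% and the mock arrays in 27.3%. Among the others, KMD3 included, these shares were 3.0% and 3.2%. A log2 fold change at or below that of AHP4 occurred in 31 (0.357%) of the dim probe sets, AHP4 included, and in 2 (0.0142%) of the others. One at or above that of KMD3 occurred in 17 (0.196%) of the dim probe sets.

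**Figure D2:**
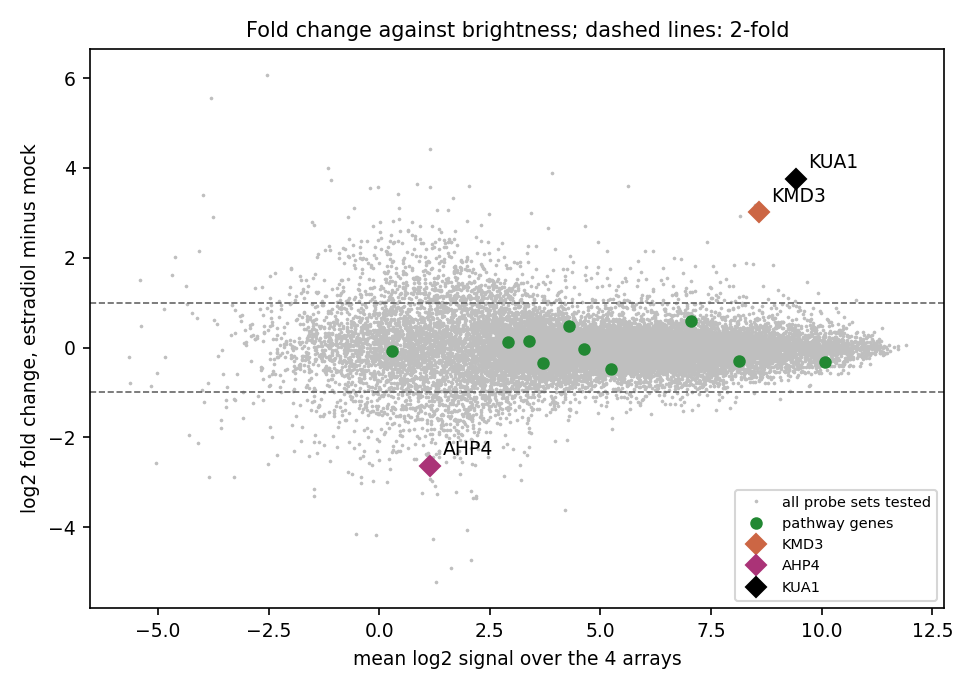
Log2 fold change (estradiol minus mock) against the mean log2 signal over the 4 arrays, with grey points for all 22746 probe sets, green points for the 10 pathway genes, diamonds for KMD3, AHP4 and KUA1, and dashed lines at 2-fold. KMD3 at 3.01 lies among bright probe sets next to KUA1 at 3.76, while AHP4 at -2.63 lies in the dim range where the grey points spread widely.

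The genes whose profiles lay nearest to KMD3 were found by the root mean square distance between log2 signals, each centred on its mean over the 4 arrays. The nearest of all probe sets was At3g13310, which encodes a DnaJ-domain chaperone, at a distance of 0.11 log2 units. Like KMD3, it is named only through the study's list of changed genes, so its direction is not independent evidence. Its signals were 97.0 and 149 under mock treatment, against 873 and 1355 under estradiol. Both genes had the same order of the 4 arrays and similar ratios between them, which is what the search selected for. The next named genes, At1g23570 at 0.16 and At5g37900 at 0.34, were dim in both groups, with signals of at most 2.17 and 8.32 on any array.
For AHP4 the nearest named genes lay further away and were all dim, with groups that overlapped. At3g24640 stood at 0.49, At5g26020 at 0.53 and the trichome birefringence-like gene TBL42 at 0.54 log2 units. On TBL42, for example, the signals were 6.14 and 12.4 under mock treatment, against 0.90 and 9.59 under estradiol, with estradiol replicate 1 far below the other arrays.

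Relatives of the KMD proteins with a named probe set were 3 of 6 listed kelch-repeat F-box genes. SKIP11 (At2g02870), a protein that binds SKP1-like subunits, had signals of 118 and 98.3 under mock treatment, against 161 and 162 under estradiol. The groups did not overlap, as was the case in this direction for 16.1% of all probe sets. The log2 fold change of SKIP11 was 0.58 (SE, 0.16, limma adjusted p = 0.588, unadjusted p = 0.0122). KFBCHS (At1g23390) marks chalcone synthase of the flavonoid pathway for degradation. It had signals of 1277 and 1146 under mock treatment, against 999 and 923 under estradiol, again without overlap. In this direction the groups did not overlap for 18% of all probe sets.
The log2 fold change of KFBCHS was -0.33 (SE, 0.16, limma adjusted p = 0.839). AFR (At2g24540), which acts in phytochrome A signalling, had overlapping signals of 55.5 and 35.7 under mock treatment, against 28.0 and 37.0 under estradiol. Its log2 fold change was -0.47. None of the 3 was called by limma, and none reached 2-fold.

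The genes downstream of these proteins in the cytokinin pathway were measured in small part. Of the 11 type-B ARR genes listed, from a family that includes KMD substrates, 2 had a named probe set and both were dim in both groups. The arrays measure RNA, so degradation of the proteins was not tested. ARR18 had signals of 10.8 and 9.12 under mock treatment, against 12.7 and 9.37 under estradiol, and ARR19 lay at or under 1.67 on every array. Their log2 fold changes were 0.14 and -0.087 with overlapping groups.
Of the 10 type-A ARR genes, quickly induced by cytokinin and feeding back on the pathway, 2 were measured. ARR16 had signals of 25.1 and 24.7 under mock treatment, against 29.9 and 20.1 under estradiol, a log2 fold change of -0.024. ARR15 was dim in both groups, at 12.5 and 17.0 under mock treatment, against 8.77 and 15.0 under estradiol, and its log2 fold change of -0.35 had an SE of 0.41. Neither pair of groups was apart. The tables used here name no probe set for the listed cytokinin receptors, other AHP genes, cytokinin response factors, cytokinin oxidases and cytokinin synthesis genes, nor for the SCF core subunits, and these were not analysed here.

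On the phenylpropanoid side no probe set is named for the 4 PAL genes, whose enzymes KMD proteins mark for degradation, and 2 of 14 enzymes after PAL were measured. HCT, the hydroxycinnamoyl transferase that leads towards lignin, had signals of 265 and 360 under mock treatment, against 309 and 206 under estradiol. The groups overlapped and its log2 fold change was -0.29 (SE, 0.25). CCR2, a cinnamoyl-CoA reductase, had signals of 19.4 and 13.9 under mock treatment, against 29.1 and 18.1 under estradiol. Its log2 fold change was 0.48, with a standard error of 0.37. CCR2 was dim under mock treatment, and its groups overlapped. Of 5 flavonoid enzymes, dihydroflavonol reductase (DFR) alone was measured, and it was dim in both groups at a log2 fold change of 0.12.
Over the 12 lists, 10 of 93 genes were measured. With limma 0 of them passed an adjusted p of 0.05 and 1, SKIP11, had an unadjusted p under 0.05, against 0 and 1481 (6.51%) of all probe sets. Past 2-fold with P below 0.05 were 0 of the 10 in either direction, against 143 (0.629%) higher and 120 (0.528%) lower over all probe sets. In 1 of the 10, SKIP11, both estradiol arrays lay above both mock arrays, against 16.1% of all probe sets. In 1, KFBCHS, both lay below, against 18% of all probe sets. The median log2 fold change of the 10 was -0.055, beside -0.0080 for all probe sets.

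**Figure D3:**
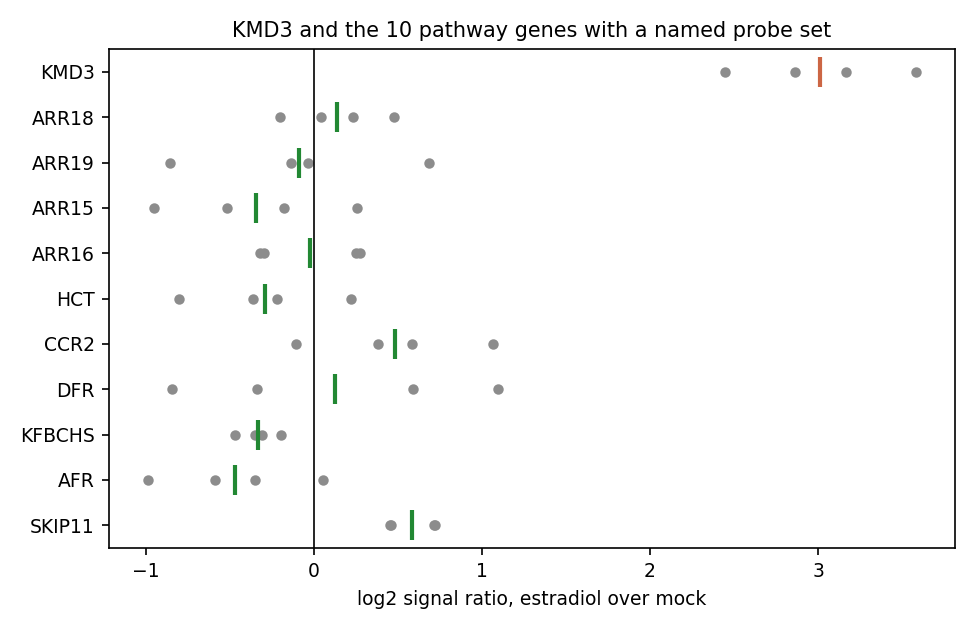
Log2 signal ratio of estradiol over mock for KMD3 and the 10 pathway genes with a named probe set, with grey points for the 4 comparisons of single arrays and a coloured bar at the log2 fold change. The bars of the pathway genes lie between -0.47 and 0.58, all of them below the lowest KMD3 point of 2.44. The 4 points lie on one side of 0 for KFBCHS and SKIP11 alone among the 10. Over all probe sets the 4 comparisons lie above 0 in 16.1% and below 0 in 18%.

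A further 11 genes were added after the data had been seen, by matching words of their names in the gene table (response regulator, SKP1-like, F-box, acyl, methyl and glycosyl transferases of phenolic compounds). Of these, 8 were dim in both groups and 0 were called by limma at an adjusted p under 0.05. At an unadjusted limma p under 0.05 were 2, against 6.51% of all probe sets. The groups lay apart in 4 of the 11, 2 higher (CCOAMT and FACT) and 2 lower (UF3GT and SK16) after estradiol. Over all probe sets the groups lay apart in 16.1% as higher and in 18% as lower. Among the 4 transferases, CCOAMT (At1g67980), named for a caffeoyl-CoA methyltransferase, had signals of 50.1 and 42.3 under mock treatment, against 221 and 112 under estradiol. It is on the gene list that the study chose on these samples, so its direction is not independent evidence. Its log2 fold change was 1.77 (SE, 0.34, limma adjusted p = 0.378). FACT, an acyltransferase that makes alkyl caffeates, had signals of 30.3 and 37.6 under mock treatment, against 54.2 and 47.4 under estradiol, a log2 fold change of 0.59 (limma, adjusted p = 0.733). UF3GT, named for a flavonoid glucosyltransferase and dim in both groups, had signals of 19.4 and 17.6 under mock treatment, against 17.4 and 5.11 under estradiol. Its log2 fold change was -0.97 (SE, 0.61, limma adjusted p = 0.908), with estradiol replicate 1 close to the mock arrays. SHT, a spermidine hydroxycinnamoyl transferase and also dim, stood at -0.0020 with overlapping groups.
The other added genes with the smallest limma p were all dim in both groups, with signals of at most 5.14 on any array. Of the 5 SKP1-like and F-box genes, the F-box gene CEG had a log2 fold change of 1.04 (SE, 0.98), SK15 one of 0.74 (SE, 0.73), SK19 one of -0.66 (SE, 1.03) and SK16 one of -0.30 (SE, 0.73). Both further response regulators had overlapping groups, with log2 fold changes of 0.29 (SE, 0.73) for ARR22 and 0.79 (SE, 0.90) for RR23.

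The protein-coding genes next to the members on the chromosome were also examined, 5 on each side, a choice made after the data had been seen. Near KMD3, 2 of the 10 neighbours had a named probe set. At2g44090 had a log2 fold change of -0.0034 and At2g44120 one of 0.19. Near AHP4, 5 of 10 were named, and their log2 fold changes ran from -0.65 to 1.05. The highest was At3g16330, with signals of 28.1 and 22.5 under mock treatment, against 56.4 and 48.0 under estradiol. None of the measured neighbours of KMD3 came near its value, but the genes directly beside it, At2g44140 and ASHH3, had no named probe set.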

How the data were processed

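The authors deposited 1 signal intensity per probe set and array on a linear scale, summarised with MAS5 (version not given in the sources used here). Each array's mean is 100.0 after the lowest and highest 2% of signals are left out, and no detection calls accompany the values. Of 22810 probe sets, 64 controls were left out. Log2 intensities of 22746 were compared with limma 3.58.1 in R 4.3.3 (lmFit, eBayes with an intensity trend, no block, Benjamini-Hochberg adjustment), and counts past 2-fold with P below 0.05 follow the study's thresholds on log2 signals. The number of arrays limits the precision. The replicates are described as biological.

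Gene names came from the platform table, which lists 14016 probe sets (503 with several genes), and otherwise from Supplementary Data 1, which adds 78. Only the names in that list were used. The table does not list 8730 probe sets. Members and gene lists were chosen with earlier results of these data known. Named were all members, KUA1, up to 4 genes per list (the added lists included) with the smallest limma p, and the 3 nearest profiles per member. Chromosomal neighbours were named after their values were seen. Alternatives were quantile normalization, median scaling, an offset of 32, a floor at the 40th percentile (with all probe sets, and, added after its calls were seen, without those at the floor on all arrays), leaving out dim probe sets, limma without trend, a replicate block, each array left out, linear means and adjusted p-values of the methods' test. The limma fit and the t-test were checked on simulated data. No sequence tables were used, so no sequences are shown.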

Additional observations from a re-analysis of the deposited data

How the results depend on the processing

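The log2 fold change of KMD3 kept its direction under every alternative run, at 2.65 to 3.38 with single arrays left out and 2.75 on log2(signal + 32). That of AHP4 was -0.17 on log2(signal + 32), where the offset exceeds its signals, and -4.21 to -1.06 with single arrays left out. It was -0.038 with the floor and had no value with dim probe sets left out. KUA1 ranged from 3.34 to 4.18 with single arrays left out and was not called in any of them. Probe sets past 2-fold with P below 0.05 numbered 30 higher and 6 lower on log2(signal + 32), 55 and 22 with the floor, and 59 and 24 with dim probe sets left out, against 143 and 120. With single arrays left out they numbered 90 (without estradiol replicate 1) to 158 higher and 72 (without mock replicate 2) to 135 lower, and with 1 array in a group that array is assumed to vary like the others. With the floor and all probe sets kept, limma called 565 probe sets, 275 higher and 290 lower, KUA1 (3.76) among them, and 1972 had an unadjusted p under 0.05. In that setting 8011 probe sets lay at the floor on all 4 arrays and so shared 1 value per array. Leaving these out, a choice made after the 565 calls had been seen, limma called 0 of the remaining 14735, with 1065 at an unadjusted p under 0.05, and the counts of 55 and 22 were the same. The call of KUA1 was lost with them. Apart from the crossed pairing below, limma called 0 probe sets under the other settings that kept all 4 arrays. In those settings 1044 to 1505 probe sets had an unadjusted p under 0.05. Of the 10 pathway genes, 0 were called under any alternative. Signs of CCR2, KFBCHS, AFR and SKIP11 held in all settings run, and 6 other genes changed sign in 1 to 5 settings.

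With the replicate block limma called 0 probe sets (1044 at an unadjusted p under 0.05, against 1481). Samples with the same replicate number did not deviate together (correlation -0.13 over all probe sets, -0.30 over those not dim in both groups), so the numbers are not taken as pairs. With the crossed pairing as block, chosen after seeing the data, limma called 3 probe sets, KUA1 among them, and 0 pathway genes. In that setting 2336 probe sets had an unadjusted p under 0.05, against 1481 without a block.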
